A study of Mus musculus with 6 samples.

Results

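The genes described here are 39 macrophage genes, picked by name from a deposited table of gene counts and covering the proteins by which tissue macrophages bind, engulf, kill and present. All 39 symbols were found among the 23358 entries of the table, and Emr1 is the older name of Adgre1, which encodes the F4/80 antigen. The list was set by gene name and not by measured values, although it was proposed with earlier results of these data known.

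RNA was sequenced from cultures of immature mouse chondrocytes taken on post-natal day 5 from the femoral head, the femoral condyles and the tibial plateau of mice of mixed C57BL/6 background. One arm was wildtype and the other Ezh2-deficient, titled as a conditional knockout (cKO) of Ezh2, the methyltransferase that trimethylates lysine 27 of histone H3. The labels do not name the promoter that drove the deletion. Cells of both genotypes were kept as micromasses, high-density spots of cells in which chondrocytes lay down cartilage matrix, in medium with serum, insulin-transferrin-selenium, ascorbic acid and beta-glycerol phosphate, and RNA was taken on days 3, 7 and 14. Each genotype gave 1 library on each day, 6 libraries in all. The 2 genotypes therefore stand in for replicates of a day and the 3 days for replicates of a genotype. Nothing in the labels says how many animals or cultures a library pooled, so each p-value measures only the spread between these 6 samples.

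Macrophages are phagocytes that seed most tissues before birth or enter them as monocytes, and their survival depends on CSF1 or IL34 acting on the receptor CSF1R. They recognise dead cells and microbes through scavenger, complement and Fc receptors, digest them in lysosomes, and can show peptides on MHC class II molecules. Around cartilage they are known from the synovium and the marrow, while cartilage matrix itself holds few or none.

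Depth ran from 51985214 to 79323302 counts a library, and levels are given as counts per 1000000 counts (CPM) with libraries scaled by TMM factors (trimmed mean of M values). Values come in pairs with wildtype first and Ezh2-deficient second. The targeted gene, Ezh2, stood at 24.7 and 14.7 CPM on day 3, 40.2 and 23.0 CPM on day 7 and 27.9 and 17.6 CPM on day 14, lower in the Ezh2-deficient library each time. Chondrocyte genes bore out the label on day 3, when 14 of them summed to 150842 and 146336 CPM. By day 14 their sum was 41425 and 26726 CPM, with 13 of 14 lower and 1 higher (Chad) in edgeR's quasi-likelihood F test, while 8 of 9 fibroblast genes (type I and III collagen among them) were higher. Changes between days below come from that same test, with Benjamini-Hochberg adjustment over 16280 genes and a threshold of 0.05. Of all these genes, 23.2% were higher and 22.4% lower on day 14 than on day 3.

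The summed level of the list went up with time in culture. The 39 genes together took 0.0337% and 0.0266% of all counts on day 3, 0.308% and 0.284% on day 7 and 0.421% and 0.481% on day 14. Their summed level was 359.8 and 284 CPM on day 3, 2858 and 2600.0 CPM on day 7 and 4152 and 5029 CPM on day 14. Lyz2 was the largest single part of that sum in every library, and without Lyz1 and Lyz2 the sum was 269 and 225 CPM on day 3, 1957 and 1589 CPM on day 7 and 2898 and 3082 CPM on day 14. In RNA from whole cultures, more cells of a type and more RNA per cell cannot be told apart.

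Of the 39 genes, 38 were higher on day 14 than on day 3 and 0 were lower. Over all genes tested, 23.2% were higher and 22.4% were lower. The median log2 fold change of the list was 3.86, a 14.5-fold difference, beside -0.02 over all genes. Between day 3 and day 7, 35 were higher and 0 lower, against 19.5% higher and 16.6% lower over all genes, with a median of 3.10 on the log2 scale. From day 7 to day 14 the median was 0.68, with 10 higher and 0 lower, against 3.38% higher and 2.29% lower over all genes. On the log2 scale the median was thus larger in the first interval than in the second. Scaling by library totals alone moves all genes by 0.21 (log2) for day 7 against day 3 and by -0.14 for day 14 against day 7. That scaling turned the calls over all genes from 3172 higher and 2709 lower to 4316 and 1250 in the first interval, and from 550 and 372 to 383 and 482 in the second, while 36 members in the first interval and 10 in the second were called higher.

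**Figure D1:**
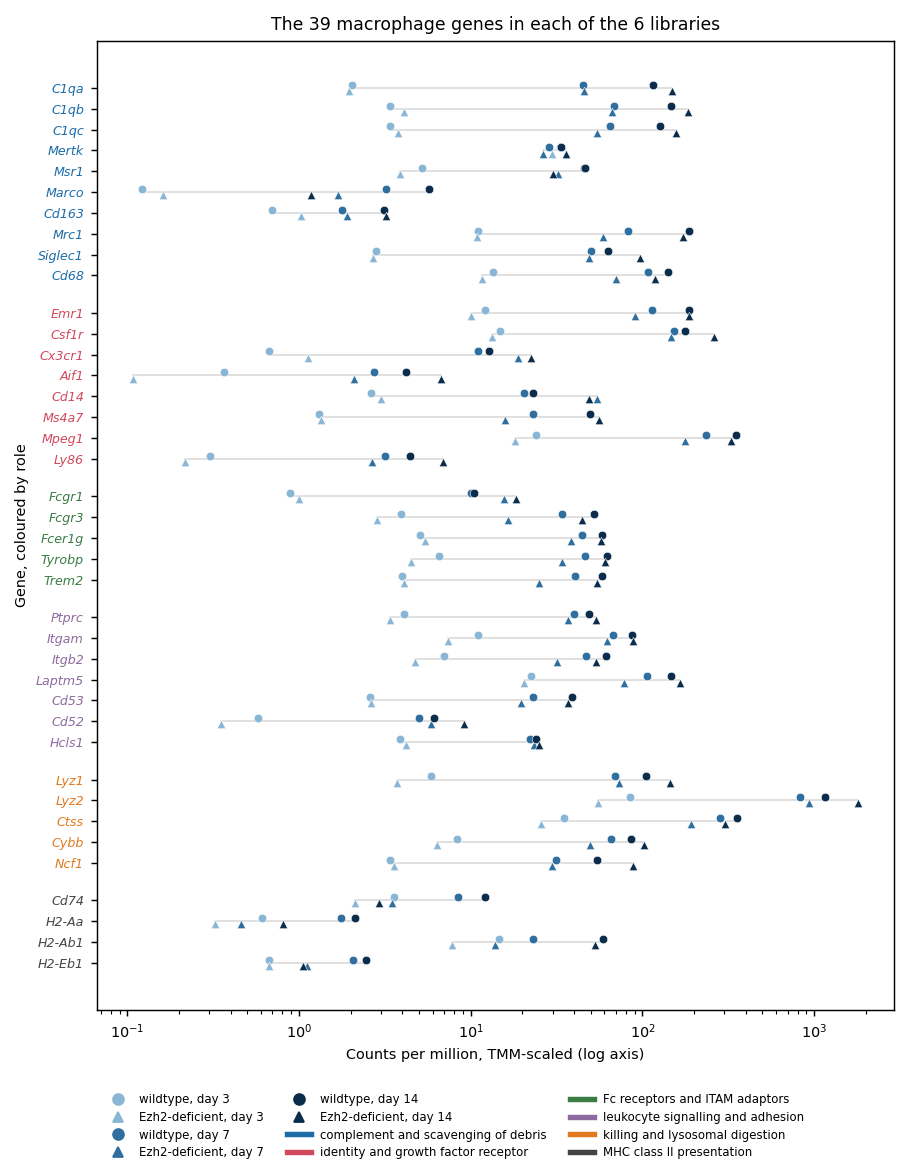
Level of each of the 39 genes in the 6 libraries, in TMM-scaled CPM on a log axis. Circles are wildtype and triangles Ezh2-deficient libraries, shade marks the day, and gene names are coloured by role. In both genotypes the day 14 point lies to the right of the day 3 point for all 39 genes, and the points of Mertk lie close together on all days, between 26.5 and 35.8 CPM.

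The complement and scavenging genes gave the largest and the smallest changes. C1qa, C1qb and C1qc encode the 3 chains of C1q, the recognition part of the classical complement pathway, which macrophages make locally and which tags dying cells. They are neighbours on chromosome 4 (C1qa at chr4:136895916-136898844, C1qb at chr4:136880145-136886177 and C1qc at chr4:136889802-136892914, build mm10). C1qa stood at 2.03 and 1.96 CPM on day 3, 45.0 and 45.8 CPM on day 7 and 114 and 149.5 CPM on day 14. C1qb was measured at 3.37 and 4.06 CPM on day 3, 68.3 and 66.5 CPM on day 7 and 146 and 184 CPM on day 14. For C1qc the values were 3.37 and 3.77 CPM on day 3, 64.5 and 54.5 CPM on day 7 and 126 and 156 CPM on day 14. All 3 chains went up at each step in both genotypes, and the days did not overlap. C1qa was 65.7-fold higher on day 14 than on day 3 (log2 fold change 6.04, SE 0.16, adjusted p = 0.000131), the largest change in the list. C1qb followed at 44.3-fold and C1qc at 39.5-fold, each with an adjusted p of 0.000131. Per length, in the RPKM values deposited by the authors, C1qa ran at 0.593 and 0.475 of C1qb on day 3, 0.647 and 0.677 on day 7 and 0.770 and 0.797 on day 14, closer to it at each step.

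Promoter sequence was looked at because these genes moved together. RefSeq promoters (build GRCm38.p6) were found for 28 of the 39 genes, with 31 start sites. The other 11 genes had no promoter entry and were not searched. For 26 of the 31, the bases just after the start are also in a GENCODE transcript of that gene. The 250 bases before the start of C1qb and C1qc are printed 5′ to 3′ on the gene's own strand, with capitals on matches to GAGGAA (the core of the PU box, the purine-rich letters bound by the macrophage factor PU.1) or AGGAAGT (a longer ETS-family site), on either strand. The C1qb window is chr4:136886201-136886450, minus strand, and the C1qc window is chr4:136892915-136893164, minus strand.
C1qb: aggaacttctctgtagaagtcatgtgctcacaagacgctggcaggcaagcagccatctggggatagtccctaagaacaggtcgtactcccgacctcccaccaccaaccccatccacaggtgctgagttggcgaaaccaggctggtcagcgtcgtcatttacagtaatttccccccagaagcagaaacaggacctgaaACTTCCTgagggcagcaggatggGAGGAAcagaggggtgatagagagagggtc
C1qc: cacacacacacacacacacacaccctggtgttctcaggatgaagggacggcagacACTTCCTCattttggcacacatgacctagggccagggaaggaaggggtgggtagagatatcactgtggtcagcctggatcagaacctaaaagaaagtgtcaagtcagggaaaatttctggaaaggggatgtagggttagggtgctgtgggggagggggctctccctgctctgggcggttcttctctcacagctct
In C1qb the AGGAAGT match begins 53 bases and the GAGGAA match 30 bases before the start. In C1qc the 2 motifs overlap in 1 run that begins 195 bases before it. GAGGAA was found in 14 of the 28 genes (50%) and in 23.3% of all 32851 promoters of the table. AGGAAGT was found in 8 (28.6%) and in 7.69% of all. In all 9 letter strings were searched, some nested in others. The other 7 were CTGATTGG and its core GATTGG (the Y box of class II genes), the interferon response element, TGACTCA (AP-1), CACGTG (E-box), GAGGAAG and GAGGAAGT. Of the 28 genes they were in 2, 7, 4, 2, 0, 8 and 1, against 3.83%, 14.6%, 2.98%, 4.46%, 6.02%, 10.6% and 2.44% of all promoters. A match describes letters and is not evidence of binding.

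Receptors for debris moved by very different amounts. Mrc1, the mannose receptor CD206, stood at 10.9 and 10.9 CPM on day 3, 81.9 and 58.6 CPM on day 7 and 186 and 172 CPM on day 14. Its day 14 levels were 16.4-fold (log2 fold change 4.03, SE 0.15, adjusted p = 0.000138) those of day 3, and it kept climbing after day 7 (2.57-fold, adjusted p = 0.00969). Its promoter (chr2:14229164-14229413, plus strand) is shown because it holds the most of these matches among the promoters printed, 3 of GAGGAA and 1 of AGGAAGT.
Mrc1: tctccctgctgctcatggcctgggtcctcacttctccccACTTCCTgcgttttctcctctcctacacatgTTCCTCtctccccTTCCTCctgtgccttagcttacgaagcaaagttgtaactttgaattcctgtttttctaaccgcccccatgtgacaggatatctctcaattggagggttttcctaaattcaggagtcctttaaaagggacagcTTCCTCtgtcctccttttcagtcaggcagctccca
Siglec1, the sialic acid receptor CD169, stood at 2.79 and 2.69 CPM on day 3, 50.02 and 48.7 CPM on day 7 and 63.3 and 97.3 CPM on day 14. It was 28.9-fold (log2 fold change 4.85, SE 0.22, adjusted p = 0.000163) higher on day 14 than on day 3. Cd68, a lysosomal and surface scavenger glycoprotein, stood at 13.6 and 11.6 CPM on day 3, 108 and 70.6 CPM on day 7 and 141 and 118 CPM on day 14, a 10.3-fold rise by day 14 (adjusted p = 0.000153). All of the day 7 and day 14 values of these 2 genes were above both of day 3.

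Msr1, the class A scavenger receptor, stood at 5.19 and 3.87 CPM on day 3, 45.8 and 32.3 CPM on day 7 and 46.0 and 30.3 CPM on day 14. It had risen 8.57-fold by day 7 (adjusted p = 0.000334) and the day 14 to day 7 ratio was 0.971 (adjusted p = 0.834). The related receptor Marco was scarce, at 0.121 and 0.161 CPM on day 3, 3.21 and 1.68 CPM on day 7 and 5.74 and 1.17 CPM on day 14. Its rise by day 14 was 19.3-fold (log2 fold change 4.27, SE 0.66, adjusted p = 0.00493), and its 2 day 14 libraries lay on either side of the 2 day 7 libraries. Cd163, the haemoglobin scavenger receptor, was also scarce at 0.698 and 1.02 CPM on day 3, 1.79 and 1.91 CPM on day 7 and 3.12 and 3.21 CPM on day 14, and rose 3.70-fold by day 14 (adjusted p = 0.00401). The day 7 calls of Cd163 and Marco did not stand when single libraries were left out (Cd163 without the wildtype day 3, wildtype day 7 or Ezh2-deficient day 7 library, adjusted p up to 0.189, and Marco without the Ezh2-deficient day 7 library, 0.0586).

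Mertk, a receptor kinase that binds bridging proteins on dying cells, was the exception. It stood at 32.9 and 29.7 CPM on day 3, 28.6 and 26.5 CPM on day 7 and 33.5 and 35.8 CPM on day 14. The days overlapped, and the day 14 to day 3 ratio was 1.11-fold (log2 fold change 0.15, SE 0.10, adjusted p = 0.299).

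Among genes of macrophage identity, 8 of 8 rose by day 14, against 23.2% of all genes. Csf1r, the receptor for CSF1 and IL34, stood at 14.8 and 13.3 CPM on day 3, 153 and 146 CPM on day 7 and 177 and 261 CPM on day 14. It was 15.4-fold (log2 fold change 3.95, SE 0.21, adjusted p = 0.000194) higher on day 14 than on day 3. Emr1, the F4/80 antigen by which mouse macrophages are classically stained, lies at chr17:57358686-57483529 and stood at 12.1 and 10.0 CPM on day 3, 113 and 90.5 CPM on day 7 and 186 and 187 CPM on day 14. It rose 16.9-fold between the first and last day (adjusted p = 0.000131) and 1.85-fold from day 7 to day 14 (adjusted p = 0.015). Mpeg1, perforin-2 of the phagosome, stood at 23.9 and 18.2 CPM on day 3, 233 and 177 CPM on day 7 and 352 and 329 CPM on day 14, 16.4-fold higher on day 14 (adjusted p = 0.000131). For these 3 genes every later library was above every day 3 library.

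Ms4a7, a tetraspanning membrane protein of mature macrophages, stood at 1.30 and 1.34 CPM on day 3, 22.9 and 15.8 CPM on day 7 and 49.6 and 56.0 CPM on day 14. With a 39.9-fold rise by day 14 (adjusted p = 0.000163) it stood between C1qb and C1qc in size of change, and it went on rising after day 7 (2.76-fold, adjusted p = 0.0169). Aif1, the calcium-binding protein IBA1, was low at 0.364 and 0.108 CPM on day 3, 2.72 and 2.08 CPM on day 7 and 4.18 and 6.71 CPM on day 14. Ly86, the MD-1 partner of the receptor CD180, stood at 0.303 and 0.215 CPM on day 3, 3.15 and 2.64 CPM on day 7 and 4.45 and 6.86 CPM on day 14. They were 24.1-fold and 21.7-fold higher on day 14 (adjusted p = 0.00252 and 0.000745), with day 3 levels of few fragments. The day 7 call of Aif1 was lost without the wildtype day 7 library (adjusted p = 0.0686). A floor of 3 fragments corresponds to 0.0763 to 0.114 CPM, and Aif1 in the Ezh2-deficient day 3 library was near it.

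Cx3cr1, the fractalkine receptor, and Cd14, the lipopolysaccharide co-receptor, reached their level early. Cx3cr1 stood at 0.667 and 1.13 CPM on day 3, 11.1 and 18.8 CPM on day 7 and 12.8 and 22.6 CPM on day 14. Cd14 stood at 2.64 and 3.01 CPM on day 3, 20.4 and 54.6 CPM on day 7 and 22.9 and 48.7 CPM on day 14. By day 7 they were 16.6-fold and 11.9-fold above day 3 (adjusted p = 0.000334 and 0.00121). From day 7 to day 14 the ratios were 1.18 and 0.989 (adjusted p = 0.326 and 0.979). In both genes the later Ezh2-deficient libraries were above the later wildtype libraries.

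Fc receptors and their signalling adaptors rose as a group by day 14, 5 of 5, by 11.0-fold to 14.8-fold, against 23.2% of all genes higher. Fcer1g and Tyrobp (DAP12) carry the tyrosine motifs through which Fc receptors and TREM2 signal. Fcer1g stood at 5.10 and 5.41 CPM on day 3, 44.5 and 38.4 CPM on day 7 and 58.5 and 57.6 CPM on day 14. Tyrobp was measured at 6.55 and 4.49 CPM on day 3, 46.4 and 33.8 CPM on day 7 and 62.1 and 60.5 CPM on day 14. Trem2, a lipid-sensing receptor that signals through Tyrobp, stood at 3.97 and 4.06 CPM on day 3, 40.2 and 24.9 CPM on day 7 and 58.4 and 54.2 CPM on day 14. These 3 went up by similar factors, 11.0, 11.3 and 13.9-fold, with adjusted p-values from 0.000131 to 0.000208. Fcgr1, the high-affinity IgG receptor, stood at 0.880 and 0.996 CPM on day 3, 10.0 and 15.5 CPM on day 7 and 10.4 and 18.2 CPM on day 14, and Fcgr3, the low-affinity one, at 3.91 and 2.85 CPM on day 3, 34.2 and 16.5 CPM on day 7 and 52.1 and 44.3 CPM on day 14. Both were higher in every later library than in either day 3 library.

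Leukocyte signalling and adhesion genes rose by day 14 in 7 of 7, by 6.09-fold to 16.3-fold, against 23.2% of all genes higher. Ptprc, the pan-leukocyte phosphatase CD45, stood at 4.09 and 3.39 CPM on day 3, 39.9 and 36.6 CPM on day 7 and 48.9 and 53.4 CPM on day 14, 13.7-fold (log2 fold change 3.78, SE 0.14, adjusted p = 0.000138) higher on day 14. The chains of the complement receptor integrin, Itgam (CD11b) and Itgb2 (CD18), were measured next. Itgam stood at 11.1 and 7.40 CPM on day 3, 67.3 and 61.8 CPM on day 7 and 86.7 and 87.5 CPM on day 14. Itgb2 stood at 6.95 and 4.71 CPM on day 3, 47.1 and 31.9 CPM on day 7 and 61.4 and 53.8 CPM on day 14. They rose 9.57-fold and 10.1-fold, and per length Itgam kept to between 0.863 and 1.18 of Itgb2 in all 6 libraries. Laptm5, a lysosomal protein of blood cells, stood at 22.4 and 20.3 CPM on day 3, 106 and 77.8 CPM on day 7 and 147 and 166 CPM on day 14. The tetraspanin Cd53, the glycoprotein Cd52 and the actin-binding adaptor Hcls1 rose 14.5-fold, 16.3-fold and 6.09-fold. Hcls1 stood at 3.85 and 4.20 CPM on day 3, 22.1 and 23.4 CPM on day 7 and 24.1 and 24.9 CPM on day 14, with the smallest rise of the group and a day 14 to day 7 ratio of 1.08 (adjusted p = 0.597).

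Killing and digestion genes held the most abundant transcripts. Per length, Lyz2 (lysozyme M, which cleaves bacterial cell walls) ranked first and Ctss (cathepsin S, a lysosomal protease) second of the 39 in all 6 libraries, at 888 and 1309 RPKM for Lyz2 and 213 and 170 RPKM for Ctss on day 14. Lyz2 stood at 85.0 and 55.2 CPM on day 3, 832 and 938 CPM on day 7 and 1149 and 1804 CPM on day 14. Its neighbour Lyz1 stood at 5.86 and 3.71 CPM on day 3, 69.1 and 73.2 CPM on day 7 and 105 and 144 CPM on day 14. Ctss was measured at 34.8 and 25.8 CPM on day 3, 282 and 190.5 CPM on day 7 and 353 and 301 CPM on day 14. The 3 genes rose 20.8-fold, 26.1-fold and 10.9-fold by day 14 (adjusted p = 0.000525, 0.000265 and 0.000137). Cybb and Ncf1 encode subunits of the phagocyte NADPH oxidase. Cybb stood at 8.28 and 6.38 CPM on day 3, 65.6 and 49.7 CPM on day 7 and 85.7 and 102 CPM on day 14 and Ncf1 at 3.37 and 3.58 CPM on day 3, 31.4 and 29.9 CPM on day 7 and 54.4 and 87.8 CPM on day 14. Ncf1 was the gene of this group called higher in the second interval too (2.27-fold, adjusted p = 0.0312). Ctss, Cybb, Lyz1 and Lyz2 had fitted ratios of 1.41 to 1.75 in that interval, without a call (adjusted p = 0.0675 to 0.214).

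Lyz1 (chr10:117287795-117292868) and Lyz2 (chr10:117277541-117282272) are near copies, so their reads can be hard to assign. Their coding sequences in the GENCODE transcripts are 444 bases long, 95% identical, with 22 differing bases and a longest identical stretch of 118 bases. The first 150 coding bases are printed to show how closely they match, with the 14 bases that differ in capitals.
Lyz1: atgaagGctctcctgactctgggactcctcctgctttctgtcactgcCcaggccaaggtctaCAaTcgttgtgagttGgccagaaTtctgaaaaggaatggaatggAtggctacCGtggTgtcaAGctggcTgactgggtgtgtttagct
Lyz2: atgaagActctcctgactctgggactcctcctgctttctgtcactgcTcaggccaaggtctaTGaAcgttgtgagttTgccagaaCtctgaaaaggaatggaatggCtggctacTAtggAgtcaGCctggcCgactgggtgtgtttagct
Their upstream 250 bases (Lyz1 chr10:117292869-117293118, minus strand, Lyz2 chr10:117282273-117282522, minus strand, GRCm38.p6) are also alike, and AGGAAGT, in capitals, begins 100 bases before the start in each.
Lyz1 promoter: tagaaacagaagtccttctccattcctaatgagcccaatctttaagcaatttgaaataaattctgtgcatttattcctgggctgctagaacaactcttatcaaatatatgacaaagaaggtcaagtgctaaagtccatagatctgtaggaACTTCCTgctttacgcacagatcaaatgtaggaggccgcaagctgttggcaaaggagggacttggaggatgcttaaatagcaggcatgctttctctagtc
Lyz2 promoter: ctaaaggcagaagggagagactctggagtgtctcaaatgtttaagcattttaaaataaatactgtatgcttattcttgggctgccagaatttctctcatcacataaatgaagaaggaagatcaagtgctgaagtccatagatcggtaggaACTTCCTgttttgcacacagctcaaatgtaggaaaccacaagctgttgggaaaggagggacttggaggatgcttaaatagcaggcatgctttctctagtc
The ratio of Lyz2 to Lyz1 per length was 17.4 and 17.8 on day 3, 14.4 and 15.3 on day 7 and 13.1 and 15.02 on day 14. How the authors' counting treated reads shared by the 2 copies is not stated by the labels, so the values of Lyz1 are uncertain. Of the members, 6 share exon bases with another annotated gene: Csf1r, Cx3cr1, Cd52 and Ncf1 with a gene on the opposite strand, and Itgam and Cd74 with one on the same strand. Whether counting used strand is not stated either, so reads of such pairs cannot be told apart.

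MHC class II genes rose least. H2-Aa, H2-Ab1 and H2-Eb1 encode class II chains and Cd74 the invariant chain that guides them to the lysosome. H2-Ab1 (chr17:34263227-34269418) stood at 14.7 and 7.80 CPM on day 3, 23.1 and 13.9 CPM on day 7 and 58.9 and 52.8 CPM on day 14, and rose 5.23-fold (log2 fold change 2.39, SE 0.20, adjusted p = 0.000711) between day 3 and day 14 and 3.14-fold between day 7 and day 14 (adjusted p = 0.0144). H2-Aa was low at 0.607 and 0.323 CPM on day 3, 1.76 and 0.458 CPM on day 7 and 2.13 and 0.803 CPM on day 14. H2-Eb1 stood at 0.667 and 0.673 CPM on day 3, 2.07 and 1.12 CPM on day 7 and 2.47 and 1.06 CPM on day 14. Cd74 stood at 3.55 and 2.13 CPM on day 3, 8.43 and 3.48 CPM on day 7 and 12.2 and 2.92 CPM on day 14. The wildtype values of these 3 went up on each day, while the Ezh2-deficient values stayed low and overlapped the day 3 levels or came close to them. Their fitted rises by day 14 were 2.97-fold, 2.41-fold and 2.23-fold (adjusted p = 0.0232, 0.0454 and 0.0375). Each of those 3 calls was lost when single libraries were left out, for example without the wildtype day 3 library (adjusted p = 0.13, 0.229 and 0.138) or without the wildtype day 14 library (0.101, 0.234 and 0.193). The call of H2-Aa was also lost without the Ezh2-deficient day 14 library (0.0916). Those of H2-Eb1 and Cd74 were lost without the wildtype day 7 library (0.092 and 0.0758) or the Ezh2-deficient day 7 library (0.087 and 0.0738), and that of H2-Eb1 without the Ezh2-deficient day 14 library (0.0634). Per length, H2-Ab1 was 11.8 to 58.9 times H2-Aa, although the 2 chains form 1 molecule.

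The start-proximal 250 bases of H2-Aa (chr17:34287824-34288073, minus strand) and H2-Eb1 (chr17:34305617-34305866, plus strand) are printed because they were the promoters of the 28 to hold CTGATTGG, the Y box of class II genes, in capitals.
H2-Aa: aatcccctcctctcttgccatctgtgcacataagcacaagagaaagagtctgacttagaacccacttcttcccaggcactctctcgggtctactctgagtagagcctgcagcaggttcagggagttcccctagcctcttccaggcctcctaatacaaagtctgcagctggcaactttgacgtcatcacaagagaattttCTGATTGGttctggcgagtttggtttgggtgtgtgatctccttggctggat
H2-Eb1: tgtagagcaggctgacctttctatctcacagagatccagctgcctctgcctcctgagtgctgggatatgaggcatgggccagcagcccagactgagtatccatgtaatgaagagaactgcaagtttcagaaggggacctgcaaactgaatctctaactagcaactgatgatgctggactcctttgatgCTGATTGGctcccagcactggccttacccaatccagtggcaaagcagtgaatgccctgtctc
The match begins 51 bases before the start of H2-Aa and 62 bases before that of H2-Eb1. A class II gene not printed either lacked these letters or was among the 11 members that were not searched. Ciita, the coactivator that works at such promoters, stood at 0.728 and 0.350 CPM on day 3, 1.25 and 0.788 CPM on day 7 and 1.22 and 0.730 CPM on day 14, with a day 14 to day 3 ratio of 1.84 (adjusted p = 0.085). Of 8 class II loading and regulator genes tested, 1 rose (H2-DMb1, 2.01-fold) and 0 fell, with a median log2 fold change of 0.18. Over all genes, 23.2% rose and 22.4% fell by day 14.

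**Figure D2:**
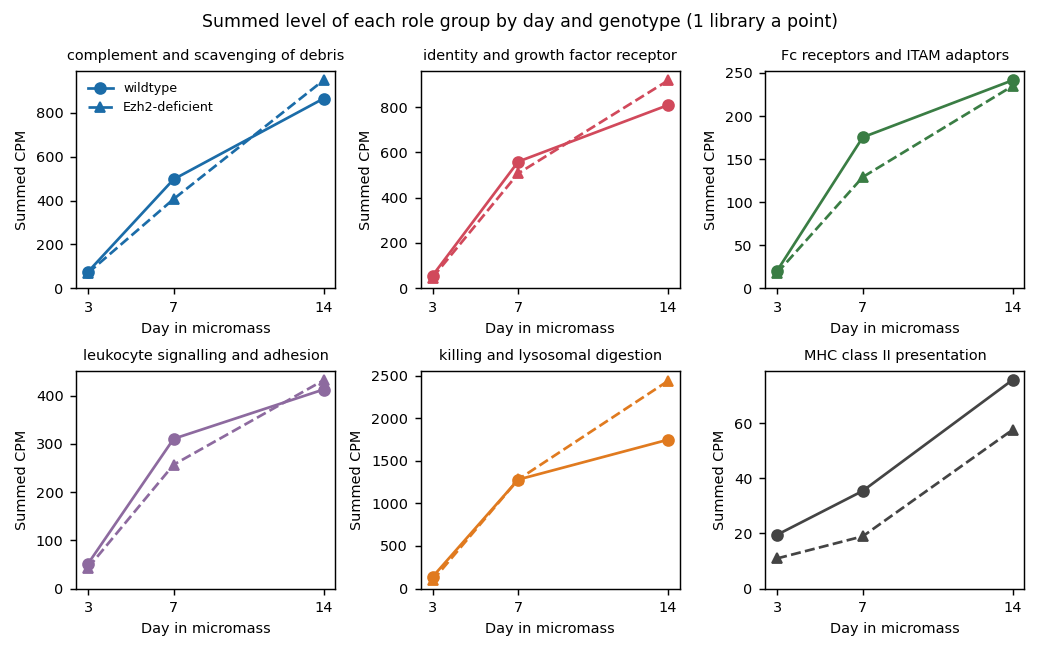
Summed TMM-scaled CPM of each of the 6 role groups against day of culture, with a linear axis from 0 in each panel. Each point is 1 library, solid lines and circles are wildtype and dashed lines and triangles Ezh2-deficient. Every group is higher on day 14 than on day 3 in both genotypes, and the class II group has the lowest sums, 75.7 and 57.6 CPM on day 14.

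Some members were called higher in both intervals, and no test compared the members with each other. They were C1qa, C1qb, C1qc, Mrc1, Emr1, Ms4a7, Mpeg1, Cd53, Ncf1 and H2-Ab1, which rose 1.68-fold to 3.14-fold after day 7. The calls do not mark off a separate course. Aif1 (2.32-fold, adjusted p = 0.201) and Fcgr3 (2.01-fold, adjusted p = 0.0551) were not called in that interval. The first-interval call of H2-Ab1 (adjusted p = 0.0346) was lost without the Ezh2-deficient day 3 library (0.0805), the wildtype day 7 library (0.223) or the Ezh2-deficient day 7 library (0.114), and with no genotype term (0.175). The 10 calls of the second interval depend on the libraries and the tool. DESeq2 gave 21 and limma-voom 6, where they called 1072 and 524 of all genes higher and edgeR 550. Leaving out 1 library gave 0 without the Ezh2-deficient day 7 library (37 of all genes higher), 2 without the Ezh2-deficient day 14 library (124), 4 without the wildtype day 7 library (77) and 15 without the wildtype day 14 library (453). Without the wildtype or the Ezh2-deficient day 3 library it gave 26 (1241 and 1253 of all genes). The count over all genes mostly moved in the same direction as that of the members. Without the wildtype day 14 library it fell while that of the members rose. Without adjustment, p was under 0.05 for 29 members with all libraries and for 14 without the Ezh2-deficient day 7 library. Genotype by genotype, the wildtype day 14 library was at least 2-fold above day 7 in 5 members (C1qa, C1qb, Mrc1, Ms4a7 and H2-Ab1, against 3.1% of all genes) and 2-fold below in 0 (2.62%). In Ezh2-deficient libraries, 14 were 2-fold higher (4.46%) and 0 lower (4.81%). This rule compares 1 library with 1 and carries no test.

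Some members were also set against Ptprc in the same library. Ptprc is 1 gene with its own course, and differences between these ratios were not tested. The count ratio of C1qa to Ptprc was 0.496 and 0.579 on day 3, 1.13 and 1.25 on day 7 and 2.34 and 2.80 on day 14. Csf1r to Ptprc stayed between 3.62 and 4.88 in all 6 libraries. Mrc1 to Ptprc was 2.67 and 3.21 on day 3, 2.05 and 1.60 on day 7 and 3.80 and 3.23 on day 14. Msr1 to Ptprc went from 1.27 and 1.14 to 0.942 and 0.566. Cd74 to Ptprc went from 0.867 and 0.627 to 0.249 and 0.0546. C1qa gained on Ptprc and Cd74 lost ground. Csf1r to Ptprc was 3.62, 3.83 and 3.63 on days 3, 7 and 14 in wildtype libraries. In Ezh2-deficient libraries that ratio was 3.92, 3.997 and 4.88.

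**Figure D3:**
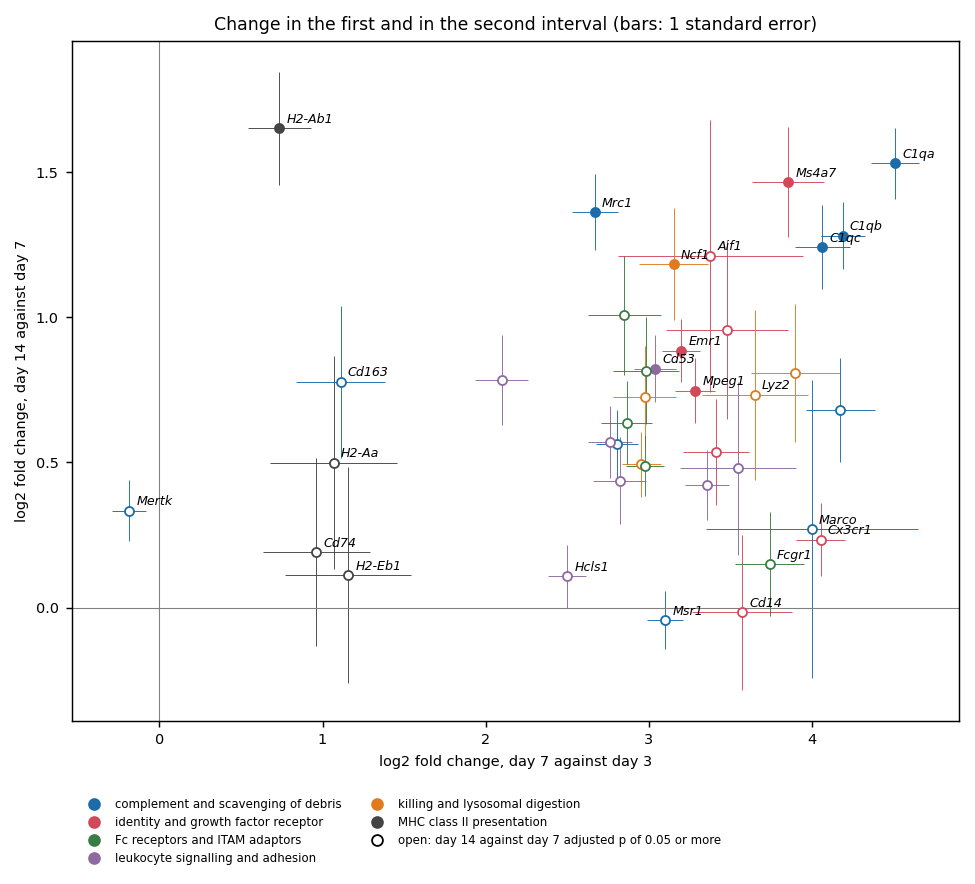
Fitted log2 fold change of each of the 39 genes from day 3 to day 7 (horizontal) and from day 7 to day 14 (vertical), with bars of 1 standard error and colours for roles. Filled points are the 10 genes higher on day 14 than on day 7. H2-Ab1 is the gene with a small first and a large second change (0.74 and 1.65), Cd14 and Msr1 have a large first change and a second near 0, and Mertk lies close to 0 in the first.

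For genotype, edgeR called no member. With the 3 days as replicates, 0 of 39 were higher and 0 lower in Ezh2-deficient libraries, against 0.0% higher and 0.0123% lower among the 16280 tested. Without adjustment, 3 higher and 11 lower had a p under 0.05. DESeq2 called 2 higher (Cx3cr1 and Cd14) and 4 lower (Msr1, Ctss, H2-Aa and Cd74), and limma-voom called 0. Over all genes DESeq2 called 381 higher and 244 lower and limma-voom 31 and 9, where edgeR called 0 and 2. The median log2 fold change of the list was -0.13, beside -0.00182 over all genes. The fit that let the genotype difference change per doubling of the day also called 0 higher and 0 lower (0.0614% and 0.553% of all genes), with 10 and 2 at a p under 0.05 before adjustment. In that fit DESeq2 called Lyz1 and Lyz2 higher, with 61 of all genes, and limma-voom called Lyz2, with 10 of all genes.

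Within single days the members were compared by a 2-fold rule with no test: at least 1 CPM in the higher library and a 95% counting interval that leaves out 1. On day 3 it found 0 higher (1.46% of all genes) and 0 lower (0.448%) in the Ezh2-deficient library. Day 7 gave 1 higher, Cd14 (2.08%), and 3 lower, Fcgr3, Cd74 and H2-Aa (1.4%). On day 14 it gave 1 higher, again Cd14 (2.13%), and 4 lower, Marco, Cd74, H2-Aa and H2-Eb1 (2.74%). Most members stood within 2-fold of the wildtype library of the same day.

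No member was called lower by edgeR, and the values of class II genes and Marco are given because they met the 2-fold rule on day 14, as Cd74, H2-Aa, H2-Eb1 and Marco did. H2-Ab1 met it on no day and Fcgr3 on day 7, and Msr1, below wildtype on all 3 days, had the lowest adjusted p of the lower members (0.114). Cd74 was 1.67-fold lower (95% counting interval 1.25 to 2.25) on day 3, 2.42-fold lower (95% counting interval 1.97 to 2.98) on day 7 and 4.16-fold lower (95% counting interval 3.25 to 5.39) on day 14. Its fitted genotype log2 fold change was -1.36 (SE 0.27, adjusted p = 0.165). H2-Aa was 3.84-fold lower (95% counting interval 2.25 to 6.91) on day 7 and 2.65-fold lower (95% counting interval 1.59 to 4.56) on day 14. Marco was 4.91-fold lower (95% counting interval 3.34 to 7.44) on day 14, when its wildtype level was 5.74 CPM, while on day 3 it stood higher in the Ezh2-deficient library (0.161 against 0.121 CPM). Ciita, named above, was at 0.572 of wildtype over the 3 days (adjusted p = 0.321). By value, all 4 class II members were lower on each day except for H2-Eb1 on day 3, at 1.01-fold (95% counting interval 0.545 to 1.88) of wildtype. On day 3 H2-Aa rested on only 40 and 24 counts, so its ratio on that day is imprecise.

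Nor was any called higher by edgeR, and Cd14, Cx3cr1 and Fcgr1 are given as the members with the highest fitted ratios. Cd14 was 1.14-fold (95% counting interval 0.855 to 1.53) of wildtype on day 3, 2.68-fold (95% counting interval 2.46 to 2.92) on day 7 and 2.12-fold (95% counting interval 1.93 to 2.34) on day 14. Cx3cr1 was 1.69-fold (95% counting interval 1.49 to 1.92) on day 7 and 1.77-fold (95% counting interval 1.54 to 2.02) on day 14. Fcgr1 was 1.75-fold (95% counting interval 1.505 to 2.03) on day 14. Their fitted adjusted p-values were 0.217, 0.11 and 0.254. Counted by sign alone, 11 members were lower in the Ezh2-deficient library on every day (Msr1, Mrc1, Cd68, Mpeg1, Fcgr3, Tyrobp, Itgb2, Ctss, Cd74, H2-Aa and H2-Ab1), a background of 18.3% of all genes, and 5 were higher on every day (Cd163, Cx3cr1, Cd14, Fcgr1 and Hcls1), a background of 18.0%. Over the 39 members the median ratio was 0.896 on day 3, 0.841 on day 7 and 1.03 on day 14.

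**Figure D4:**
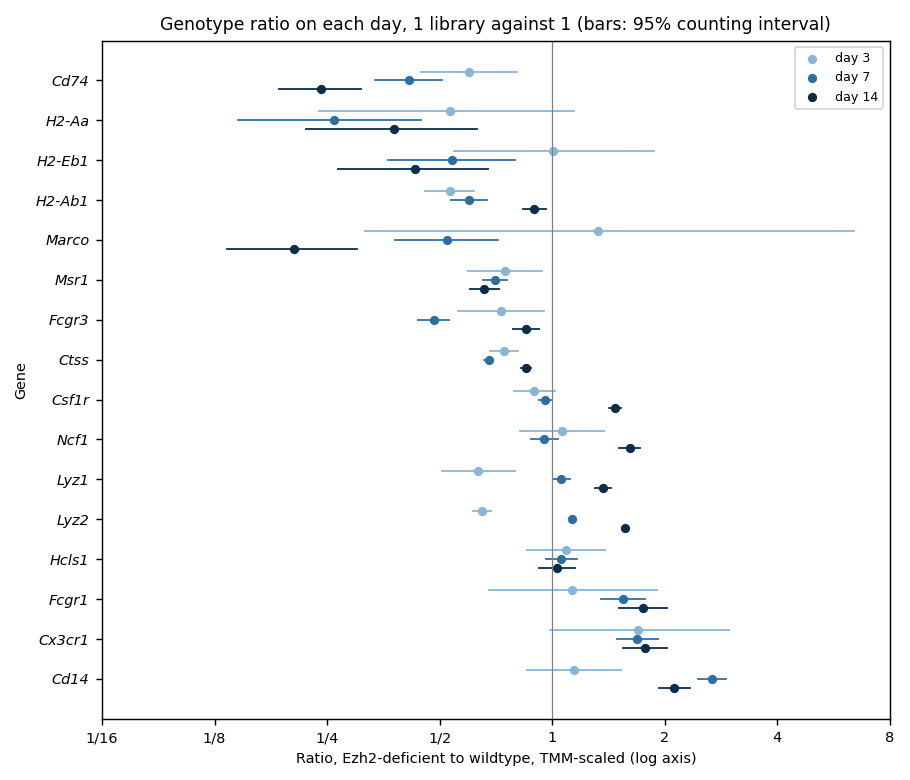
Ratio of the Ezh2-deficient to the wildtype library on each day for 16 of the 39 genes, on a log axis, with exact 95% counting intervals as bars and shade for the day. The genes were chosen with their values known. The points of Cd74, H2-Aa and Msr1 lie left of 1 on all 3 days and those of Cd14 and Cx3cr1 right of it. Those of Lyz1 and Lyz2 pass from left to right between day 3 and day 14.

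Genes that guide or feed macrophages were looked at from a separate list of 17, of which 12 rose and 1 (Batf3) fell between day 3 and day 14. The background over all genes was 23.2% higher and 22.4% lower. Csf1, the growth factor, stood at 163 and 244 CPM on day 3, 194 and 272 CPM on day 7 and 192 and 224 CPM on day 14, with a day 14 to day 3 ratio of 1.04 (adjusted p = 0.708). Il34, the other ligand of CSF1R, was low at 2.82 and 3.47 CPM on day 3, 4.11 and 5.06 CPM on day 7 and 2.92 and 3.76 CPM on day 14 (ratio 1.06, adjusted p = 0.745). The 2 ligands thus showed no call while their receptor rose. Spi1, which encodes PU.1 and is listed in the table as Sfpi1, stood at 2.70 and 1.94 CPM on day 3, 20.6 and 18.2 CPM on day 7 and 21.7 and 28.4 CPM on day 14. It rose 10.9-fold (log2 fold change 3.44, SE 0.24, adjusted p = 0.000389). Irf8, a factor of monocyte and macrophage development, stood at 0.971 and 1.26 CPM on day 3, 9.79 and 8.79 CPM on day 7 and 13.8 and 18.1 CPM on day 14 and rose 14.2-fold (adjusted p = 0.000228). The regulators Runx1, Irf5 and Maf rose 6.20-fold, 6.81-fold and 3.64-fold, and the cytokine receptor chain Csf2rb 14.0-fold.

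Macrophage and leukocyte genes outside the 39 rose alongside them. Of 27 cytoplasmic genes of all leukocytes, 27 rose and 0 fell by day 14 (median log2 fold change 3.31), against 23.2% and 22.4% of all genes. Among them the actin regulators Nckap1l and Lcp1 rose 10.7-fold and 6.94-fold, the signalling protein Vav1 9.93-fold and the kinase substrate Plek 11.9-fold. Of 35 tested surface genes, 34 rose and 0 fell (median 3.60). The complement receptor C3ar1 rose 11.6-fold, the lectin Clec12a 12.5-fold, the siglec Cd33 20.03-fold and the toll-like homologue Cd180 9.39-fold. Lysosome and lipid genes, which many cells use, rose in 20 of 24 and fell in 0, with a smaller median of 1.46. The proteases Ctsc and Lgmn rose 10.5-fold and 5.57-fold, the lipase Lipa 6.52-fold and the lipid droplet protein Plin2 3.44-fold. These lists were drawn up with earlier results known and are no independent evidence.

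Markers of other blood and vessel cells were mixed. For day 14 against day 3, 23.2% of all genes were higher and 22.4% lower, so a few calls in these short lists say little. Neutrophil genes summed to 8.49 and 8.02 CPM on day 3 and 8.89 and 7.63 CPM on day 14, with 1 of 9 tested higher (Mmp8) and 2 lower (S100a9 and Camp). Cxcr2 was the largest part of that sum in every library, and the median log2 fold change of the list was -1.05. T and NK cell genes summed to 7.07 and 8.15 CPM on day 3, 18.2 and 8.97 CPM on day 7 and 33.2 and 19.0 CPM on day 14, 4.70-fold and 2.33-fold above day 3. Of that sum Cd28, a T cell costimulatory receptor, made up 27.96 and 16.4 CPM on day 14. Of 7 tested, Cd4 and Cd28 rose and Lck fell, Cd3g, Ncr1 and Gzma had 0 counts in every library, and Cd3e had at most 0.0365 and Cd3d at most 0.188 CPM. B cell genes summed to 2.49 and 1.43 CPM on day 3, 12.6 and 8.62 CPM on day 7 and 19.6 and 15.1 CPM on day 14, 7.87-fold and 10.6-fold above day 3. The adaptor Blnk made up 16.4 and 13.4 CPM of it on day 14, and 3 of 5 tested rose (Blnk, Cd79b and Fcer2a). Mast cell genes summed to between 2.97 and 6.30 CPM. Of these, Fcer1a, Cma1, Mcpt4 and Tpsb2 had 0 counts, and 1 of 3 tested rose (Kit, 4.54-fold). Dendritic cell genes summed to between 7.56 and 11.2 CPM and rose in 0 and fell in 0 of 4, and erythroid genes, at 0.880 to 2.17 CPM, did so in 0 and 0 of 3. Endothelial genes, at 13.5 to 31.4 CPM, rose in 2 of 9 (Kdr and Erg) and fell in 1 (Pecam1). In every library the largest part of the sum was Gata2 for mast cell, Zbtb46 for dendritic cell, Alas2 for erythroid and Erg for endothelial genes. The part of these cell types in the rise of the members was not tested.

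Osteoclasts come from the same precursors as macrophages, and their list rose in 6 and fell in 1 of 10. Over all genes, 23.2% were higher and 22.4% lower on day 14 than on day 3. Tnfrsf11a, the RANK receptor, stood at 1.70 and 1.72 CPM on day 3, 11.97 and 10.8 CPM on day 7 and 14.1 and 12.9 CPM on day 14 and rose 7.86-fold. Atp6v0d2, a proton pump subunit, stood at 3.88 and 2.58 CPM on day 3, 23.3 and 7.499 CPM on day 7 and 43.0 and 17.4 CPM on day 14. Acp5 rose 3.48-fold and Mmp9 fell to 0.140 of its day 3 level. Calcr, the calcitonin receptor of mature osteoclasts, was at most 0.0567 CPM and Ocstamp at most 0.190 CPM.

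**Figure D5:**
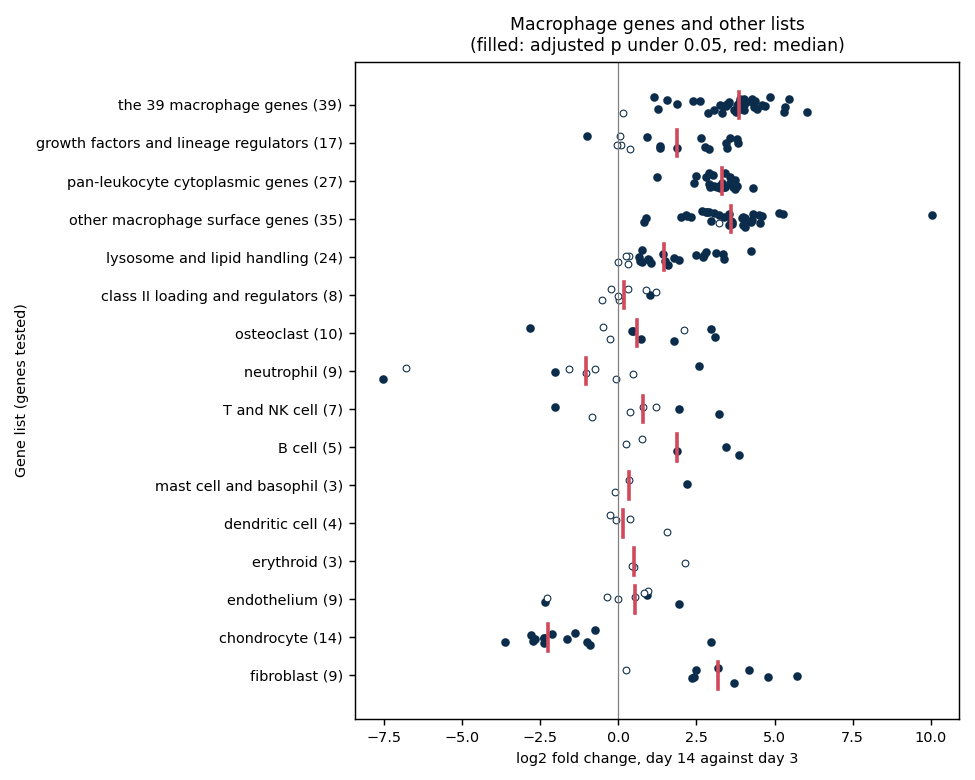
Fitted log2 fold change from day 3 to day 14 for the 39 genes and 15 other lists, with the number of genes tested in brackets. Each point is a gene, filled where the edgeR adjusted p is under 0.05, and the red bar is the list's median. The 39 genes (median 3.86), the leukocyte list (3.31), the macrophage surface list (3.60) and the fibroblast list (3.20) lie right of 0, and the chondrocyte list (-2.24) lies left of it.

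Fibroblast and chondrocyte genes thus moved over the same days as the macrophage genes. The fibroblast list summed to 3320 and 4666 CPM on day 3 and 71942 and 124031 CPM on day 14. The part of these other changes in the rise of the macrophage genes was not tested.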

How the data were processed

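Libraries were made from total RNA (Qiazol and a miRNeasy micro kit, per the labels' protocols). CASAVA 1.9, TopHat 12.0.6, HTSeq (no version) and the build mm10 are named in the submitters' processing notes. The deposited table gives raw counts per gene and, from the authors, RPKM values. Every count is even, and a fragment is taken as 2 counts. RPKM was used only to compare levels between genes per length. Its length column is given by the deposited table, and the counts make up 80.2% to 82.8% of the totals behind it.

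Genes were kept by filterByExpr (minimum count 10, day as group), which left 16280, all 39 members among them. CPM used TMM factors of 0.935 to 1.09. The test was edgeR 4.0.16's quasi-likelihood F test (R 4.3.3), two-sided, with genotype and day as factors and 2 residual degrees of freedom. The fit for a genotype difference per doubling of day had 1. SE is the absolute log2 fold change over the square root of F. Single libraries were compared by a 2-fold rule with a prior count of 2. Exact 95% counting intervals and floors of 3 fragments cover counting error only. DESeq2 1.42.0, limma-voom (limma 3.58.1), other scalings, no filter, fragments, no genotype term and left-out libraries were alternatives. The fitting script was tested on simulated data. The members and all lists were chosen with earlier results of these data known. Every member is named, and of each other list up to 4 genes with the smallest p for day 14 against day 3, plus Csf1, Il34, Spi1, Irf8, Ciita and markers without counts. Markers named with low counts (Cd3e, Cd3d, Calcr, Ocstamp) were chosen after their values were seen. Cxcr2, Gata2, Zbtb46 and Alas2 were named as the largest part of their list's sum. Ly6g was not matched. Columns without a sample numbered 0.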

Additional observations from a re-analysis of the deposited data

Results flagged for a closer look

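Of the 39 members, 10 pointed in opposite directions in different libraries, by counting intervals that leave out 1. This rule was not applied to all genes, so the 10 have no background to be set against. At these depths it also picks up small ratios, such as 0.956 for Csf1r. Each ratio compares 1 library with 1, and the differences were not tested beyond the fit per doubling of day, in which no member was called. Between genotypes (Ezh2-deficient over wildtype), Lyz2 stood at 0.649 on day 3, 1.13 on day 7 and 1.57 on day 14, and Lyz1 at 0.634, 1.06 and 1.36. Their adjusted p-values for a difference per doubling of day were 0.0582 and 0.0732 in edgeR. Cybb stood at 0.770 on day 3, 0.758 on day 7 and 1.20 on day 14 (adjusted p = 0.354). Aif1 was 0.296 of wildtype on day 3 and 1.61 on day 14 (adjusted p = 0.164). The day 7 and day 14 ratios were 0.845 and 1.24 for C1qc, 0.956 and 1.47 for Csf1r, 0.688 and 1.13 for Ms4a7, 0.917 and 1.09 for Ptprc, and 0.733 and 1.13 for Laptm5. Cd14 differed between genotypes in its change from day 7 to day 14, with a ratio of 1.13 in wildtype and 0.892 in Ezh2-deficient libraries.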

How the results depend on the processing

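The 38 members higher on day 14 than on day 3 came to 35 to 38 under 13 alternatives, with 0 lower, and the list's median stayed between 3.62 and 3.96 (log2). The members lost were Cd74, H2-Aa and H2-Eb1. For day 7 against day 3 the 35 members came to 32 to 37, with a median between 2.94 and 3.31, and H2-Ab1, Cd163, Aif1 and Marco each lost their call under at least 1 alternative. The fit compares genotypes within days and days within genotypes, and no further pairing was possible with 1 library each. Leaving out a pair of libraries left no residual degrees of freedom for the difference per doubling of day and was not run. With 1 library a point, counting precision is high for most members and the spread between cultures is not measured within a day. Low members (Aif1, Ly86, Marco, H2-Aa, H2-Eb1, Cd163, Cd52, Fcgr1 and, in wildtype, Cx3cr1) rest on few fragments on day 3. The causes of the changes below were not tested.

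For day 14 against day 7, the 10 members higher became 21 with DESeq2, 6 with limma-voom, 6 with no genotype term and 0 to 26 with single libraries left out. Over all genes the 550 higher became 1072 with DESeq2, 524 with limma-voom and 174 with no genotype term. Between genotypes, DESeq2 gave 2 higher and 4 lower, and leaving out day pairs gave 0 to 3 in each direction. Without day 3 it was 3 higher and 3 lower, where 383 of all genes were higher and 480 lower. For the difference per doubling of day, 2 were higher with no filter (Lyz1 and Lyz2), 2 with DESeq2 and 1 with limma-voom. Over all genes these settings called 27, 61 and 10 higher, and the main fit 10. With a 3-fold rule in place of the 2-fold rule, Ezh2-deficient against wildtype gave 0 higher and 1 lower on day 7. On day 14 it gave 0 higher and 2 lower. Day 14 against day 7 gave 0 higher in wildtype and 4 in Ezh2-deficient libraries. The share of all genes that met the 3-fold rule was not counted, so these counts have no background.

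Directions also turned, for genes that were not called. Under library totals the log2 fold change was 0.0265 for Mertk (day 7 against day 3), -0.0326 for Hcls1 and -0.0214 for H2-Eb1 (day 14 against day 7) and -0.0234 for Lyz1 (genotype). For genotype, Lyz1 was -0.0105 with DESeq2, Lyz2 -0.0609 and Aif1 0.10 with limma-voom. With single libraries left out, day 14 against day 7 ranged over Msr1 -0.10 to 0.026, Marco -0.72 to 1.00, Cd14 -0.34 to 0.39, Fcgr1 -0.035 to 0.33, Cd74 -0.38 to 0.65 and H2-Eb1 -0.29 to 0.44. With day pairs left out, genotype ranged over C1qc -0.062 to 0.24, Siglec1 -0.039 to 0.32, Csf1r -0.10 to 0.25, Aif1 -0.82 to 0.16, Ms4a7 -0.29 to 0.12, Ly86 -0.33 to 0.22, Fcer1g -0.12 to 0.026, Ptprc -0.19 to 0.0015, Laptm5 -0.29 to 0.019, Cd52 -0.11 to 0.41, Lyz1 -0.24 to 0.26 and Lyz2 -0.22 to 0.41.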

Other observations

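Among macrophage surface genes outside the 39, 2 were chosen after their values were seen. Fcgr2b, the inhibitory Fc receptor, stood at 0.546 and 0.430 CPM on day 3, 3.49 and 2.49 CPM on day 7 and 18.4 and 19.1 CPM on day 14, a 38.6-fold rise from day 3 to day 14 (edgeR adjusted p = 0.000163). Vsig4, a complement receptor of resident macrophages, had 0 counts in both day 3 libraries and stood at 0.539 and 0.203 CPM on day 7 and 2.32 and 1.57 CPM on day 14.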
